A study of Arabidopsis thaliana with 39 samples.

Results

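The comparison described here sets seeds of the dog1-4 mutant against Col-0 wild-type seeds of Arabidopsis thaliana after 3 days of secondary dormancy induction. Secondary dormancy is a block to germination that a non-dormant seed takes on again when it is wet but kept under unfavourable conditions. Both genotypes were after-ripened dry seeds that were laid on wet paper in the warm and the dark for 3 days (labelled 3d), and both were sequenced as single seeds in 3 libraries of 32 seeds each. Of these 192 seeds, the 190 with at least 5000 unique molecular identifiers (UMIs, 1 for each captured transcript) on nuclear genes were taken, out of 1056 single seeds in the whole series. Libraries held 31, 32 and 32 kept seeds of Col-0 and 32, 31 and 32 of dog1-4. A seed is not a replicate of its genotype here: UMIs were summed over the seeds of a library, and the 3 libraries of a genotype were the replicates (n = 3). The study describes the batches of its time course as technical replicates, so the spread between libraries here may hold little of the variation between seed stocks. The labels do not name the seed stock behind each library. Where 3 libraries were drawn from 1 stock, genotype and stock cannot be told apart, and the p-values measure only the spread between libraries, which may be technical. Values from Col-0 and dog1-4 seeds after 7 days of induction and 24 h of recovery in light (7d+24h) and from 3 pools of dry seeds of each genotype are set beside the 3d values. The recovery samples are again 3 libraries of 32 seeds a genotype.

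DOG1 (DELAY OF GERMINATION 1) is a protein of developing seeds that sets the depth of dormancy, and it acts together with abscisic acid (ABA) signalling through clade A protein phosphatases. Germination is promoted by gibberellin, which removes the DELLA repressors GAI and RGA, and by light through the phytochromes. FHL and its homologue FHY1 carry phytochrome A into the nucleus. The dog1-4 seeds carried the mutation throughout their development, and the labels name no other difference from the Col-0 seeds.

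The genotypes differed in depth by less than the spread between libraries. Nuclear UMIs summed to 2132485 to 2376493 per Col-0 library and 1771987 to 2877543 per dog1-4 library, and the median seed of a library held 67687 ± 5239 UMIs in Col-0 and 65886 ± 13669 in dog1-4 (mean ± SD of 3 libraries, exact permutation test, two-sided, p = 0.9). The share of UMIs outside nuclear protein-coding genes, which the study calls unspecific, was 13.2% ± 0.691 in Col-0 and 13.1% ± 0.113 in dog1-4 (exact permutation test, two-sided, p = 0.7). The smallest p this exact test allows with 3 libraries a side is 0.1. The 6 libraries share the same 32 seed numbers.

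Library 3 of dog1-4 stood apart. In 8 of its seeds, those numbered 9 to 16 without a gap, 4.31% to 14.5% of nuclear UMIs lay on a photosynthesis list of 47 nuclear genes. These were picked by symbol as light-harvesting proteins, photosystem subunits and the small subunit of Rubisco. PSAT and PSAT1 among them match by symbol only and are not photosynthesis genes. In the other 24 seeds of that library the share was at most 0.106%, and in the other 5 libraries it was at most 0.112% in any seed. The 8 seeds had a median of 140100 UMIs against 72680 in the other seeds of the library, with overlapping ranges of 74476 to 163313 and 25412 to 174381. The correlation of log2 CPM (counts scaled to the same library total, with edgeR's TMM factors) between this library and the others was 0.688 to 0.723 over the genes tested, against 0.930 to 0.975 for the other pairs, and it was 0.875 to 0.946 once the 8 seeds were left out. The other 24 seeds of the library still differed from the other libraries. They had a median of 11070 genes detected, against 8634.5 to 9722 in the other 5 libraries. Cytosolic ribosomal protein genes took 3.225% of their nuclear UMIs, against 2.02% to 2.51% in the other 5 libraries. So leaving out the 8 seeds does not make this library like the others. The comparison is given with all kept seeds and without these 8, a choice made after the values were seen. Unless stated otherwise, values are with all kept seeds.

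**Figure D1:**
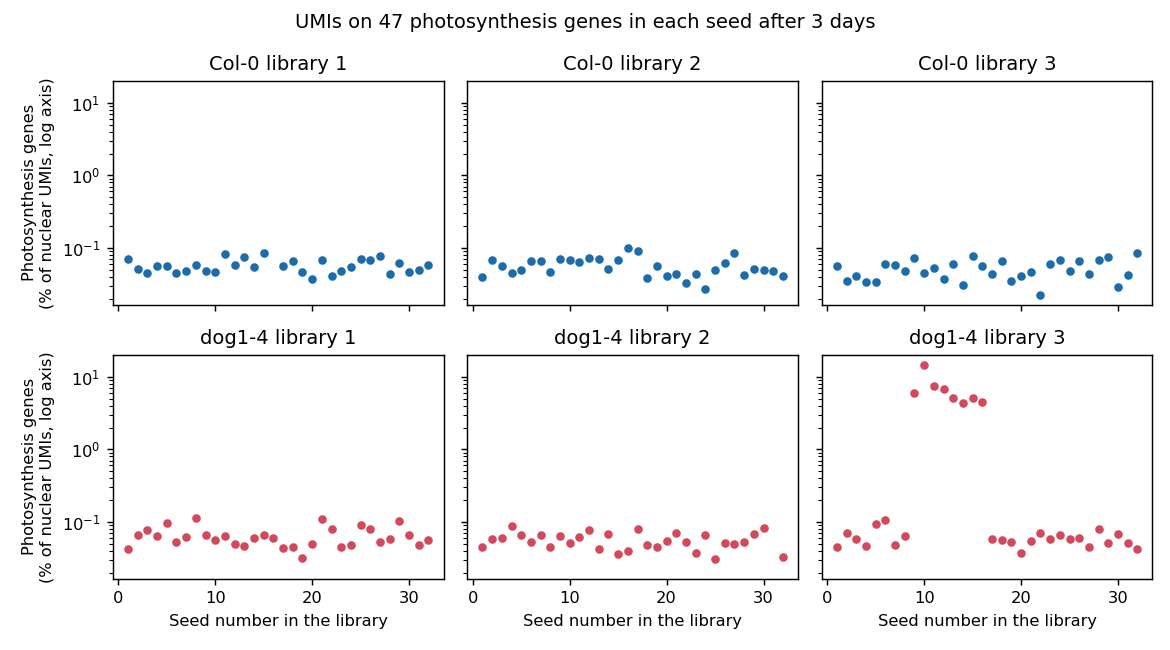
Share of nuclear UMIs on the 47 genes of the photosynthesis list (log axis, percent) in each kept seed, by seed number, for the 3 Col-0 and 3 dog1-4 libraries at 3d. Seeds 9 to 16 of dog1-4 library 3 lie at 4.31% or above, and all others at 0.112% or below.

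Of 8456 nuclear genes with at least 1 UMI per seed on average, 21 differed between dog1-4 and Col-0 at 3d, or 0.248% (edgeR quasi-likelihood test on library sums; a call needs a log2 fold change past 1 in size and a Benjamini-Hochberg adjusted p below 0.05). In dog1-4, 12 genes were higher (0.142%) and 9 were lower (0.106%). Without the 8 seeds 7930 genes passed the filter and 56 were called (0.706%), of which 34 were higher (0.429%) and 22 lower (0.277%) in dog1-4. Of the 21 genes, 17 were called again without the 8 seeds, all in the same direction. MRD1 and TZP no longer reached 1 UMI per seed, and ALY4 and SEP2 fell short of the fold limit. The median log2 fold change of all genes was 0.03 with all seeds and 0.01 without the 8.

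The size of this list depended on single libraries. Leaving out Col-0 library 1, 2 or 3 gave 2, 1 and 1 calls, leaving out dog1-4 library 1 or 2 gave 22 and 1, and leaving out dog1-4 library 3 gave 57. FHL was the gene with the smallest adjusted p and was called in 21 of 25 alternative settings, and no called gene turned its direction in any setting. The adjusted p of FHL ran from 2.31e-22 to 0.344 over these settings. At an unadjusted p under 0.05 there were 1159 genes. Reads were counted on the sense strand, and MRD1, SEP2, ALDH2C4, ALY4, ANNAT2 and AT5G66052 each overlap a protein-coding gene on the opposite strand, and RLP26 and SOUL-1 a non-coding one.

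**Figure D2:**
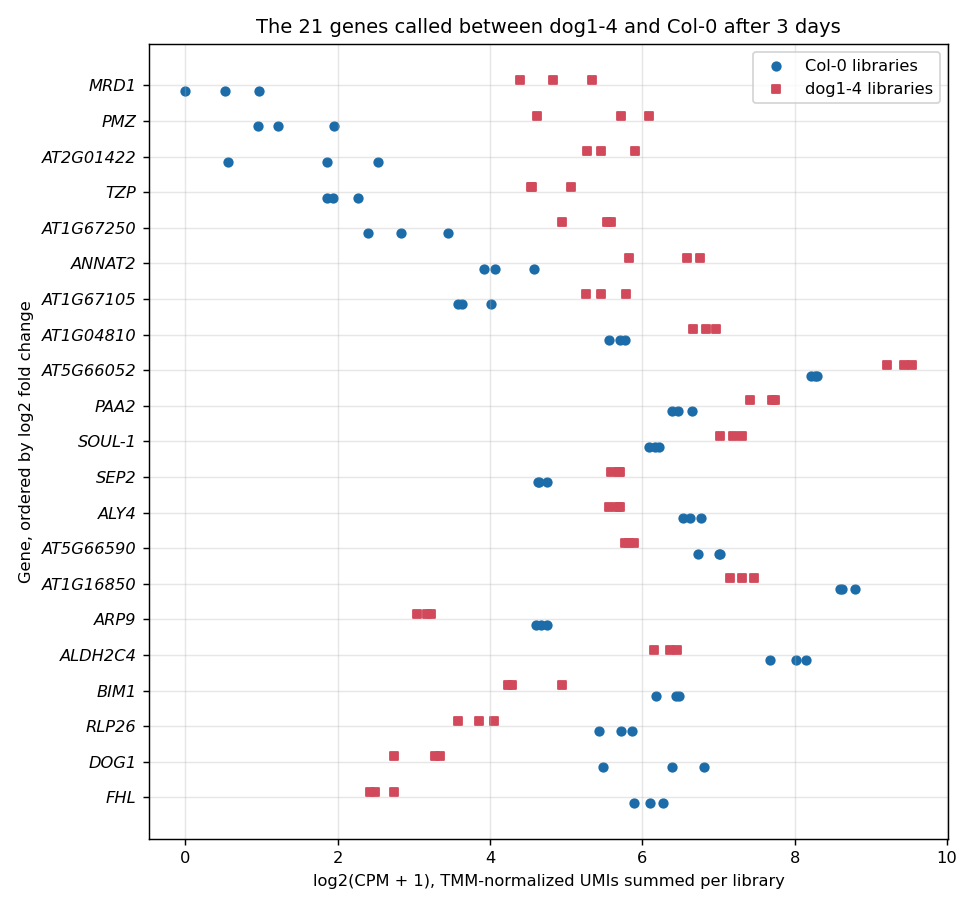
Level of the 21 called genes in each library at 3d, as log2(CPM + 1) on the horizontal axis, with Col-0 libraries as circles and dog1-4 libraries as squares. The libraries of the genotypes do not overlap for any of the 21 genes.

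Non-overlap alone was common. Every dog1-4 library lay above every Col-0 library for 868 of the 8456 genes (10.3%) and below for 795 (9.4%). All 21 called genes were among these.

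DOG1 itself was the check of the labels. It measured 43.8, 83.2 and 112 CPM in the Col-0 libraries and 9.19, 5.69 and 8.70 CPM in the dog1-4 libraries. The groups did not overlap, and the log2 fold change was -3.32 ± 0.39 (SE, edgeR adjusted p = 0.0437). At least 1 UMI was seen in 89 of 95 Col-0 seeds and in 33 of 95 dog1-4 seeds, so low counts from the locus remained in the mutant. The position of the dog1-4 lesion was not given in the sources used here, and the method reads 3′ ends, so these counts do not say whether the transcript is complete. DOG1 lies on chromosome 5 from 18589418 to 18591506 (TAIR10.1, minus strand).

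Among called genes FHL fell most. It is the nuclear transport factor of phytochrome A and lies on chromosome 5 from 437365 to 439019. Its level was 76.3, 67.4 and 58.2 CPM in Col-0 and 4.59, 5.69 and 4.35 CPM in dog1-4. All dog1-4 libraries were low and close to each other, far below the lowest Col-0 library, and the log2 fold change was -3.79 ± 0.19 (SE, edgeR adjusted p = 0.00183). FHL had a UMI in 91 of 95 Col-0 seeds and in 25 of 95 dog1-4 seeds, with 8, 8 and 9 such seeds in the 3 dog1-4 libraries.

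The sequences before the start of FHL and of 4 proteasome genes described below are shown as examples of the called gene that fell most and of the group described most fully below. PBB2 was called without the 8 seeds only. Each is the 250 bases before the annotated gene start in RefSeq's TAIR10.1 assembly, 5′ to 3′ on the gene's strand. Capitals mark ACGTG or its reverse complement CACGT in FHL, the core of the G-box and of ABA response elements, and TGGGC or its reverse complement GCCCA in the others, a core found in promoters of plant proteasome genes.
FHL (chr5:437115-437364, plus strand): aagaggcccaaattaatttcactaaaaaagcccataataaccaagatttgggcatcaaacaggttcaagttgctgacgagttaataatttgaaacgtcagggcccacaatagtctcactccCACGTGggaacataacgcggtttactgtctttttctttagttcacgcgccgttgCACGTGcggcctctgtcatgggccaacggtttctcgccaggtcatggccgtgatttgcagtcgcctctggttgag
AT1G67250 (chr1:25165057-25165306, minus strand): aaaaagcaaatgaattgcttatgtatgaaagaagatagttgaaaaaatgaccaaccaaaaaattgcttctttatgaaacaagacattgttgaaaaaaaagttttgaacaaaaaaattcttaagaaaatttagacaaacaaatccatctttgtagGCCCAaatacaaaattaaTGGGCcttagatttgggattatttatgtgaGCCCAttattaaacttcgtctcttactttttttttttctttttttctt
PBB2 (chr5:16250926-16251175, minus strand): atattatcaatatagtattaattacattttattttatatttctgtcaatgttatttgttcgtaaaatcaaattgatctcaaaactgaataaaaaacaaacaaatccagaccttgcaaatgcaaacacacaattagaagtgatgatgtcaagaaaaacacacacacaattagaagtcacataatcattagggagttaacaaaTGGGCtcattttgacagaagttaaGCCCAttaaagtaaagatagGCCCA
AT1G04810 (chr1:1349830-1350079, plus strand): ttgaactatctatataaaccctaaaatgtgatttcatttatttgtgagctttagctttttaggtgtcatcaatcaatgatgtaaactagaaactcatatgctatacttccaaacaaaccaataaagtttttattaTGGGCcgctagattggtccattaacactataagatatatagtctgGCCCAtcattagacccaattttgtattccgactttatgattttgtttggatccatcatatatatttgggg
PAA2 (chr2:2233769-2234018, plus strand): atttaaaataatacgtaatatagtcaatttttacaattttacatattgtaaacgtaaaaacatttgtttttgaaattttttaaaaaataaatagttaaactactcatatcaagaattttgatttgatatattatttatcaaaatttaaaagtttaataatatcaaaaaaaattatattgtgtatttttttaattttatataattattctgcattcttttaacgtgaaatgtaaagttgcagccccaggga
The capitals of FHL form CACGTG at both places, a palindrome that matches on both strands. ACGTG on either strand was present in 25.2% of the 8451 windows of tested genes with coordinates. It was present in 4 of the 9 windows of genes called lower and in 4 of the 12 of genes called higher. In the proteasome list described below it was present in 13.2% of windows. TGGGC on either strand was present in 31.2% of all windows. It was present in 16 of 38 windows of the proteasome list. Among called genes it was present in 4 of the 12 windows of those called higher and in 2 of the 9 of those called lower. It occurs 3 times before AT1G67250 and PBB2, 2 times before AT1G04810 and not before PAA2. It also occurs 5 times, unmarked, before FHL, which fell. ACGTG in turn has 1 unmarked match before PAA2, which rose. A match is a run of letters and not a measured binding site.

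The other genes called lower had smaller falls. RLP26, a receptor-like protein, measured 57.5, 42.0 and 51.5 CPM in Col-0 and 10.9, 13.4 and 15.5 CPM in dog1-4 (log2 fold change -1.90 ± 0.20, edgeR adjusted p = 0.0389). BIM1, a bHLH transcription factor of brassinosteroid signalling, measured 88.6, 85.8 and 71.5 CPM against 17.8, 18.6 and 29.8 CPM (-1.87 ± 0.23). In both genes the highest dog1-4 library stayed well below the lowest Col-0 library. ALDH2C4, an aldehyde dehydrogenase of phenylpropanoid metabolism, went from 248 ± 40.7 to 79.3 ± 8.55 CPM (mean ± SD), and the actin-related gene ARP9 from 24.6 ± 1.28 to 7.89 ± 0.587 CPM. AT1G16850, an uncharacterized protein, was the most abundant of the genes that fell, at 407 ± 30.6 CPM in Col-0 and 158.5 ± 17.6 CPM in dog1-4. AT5G66590, of the CAP family of secreted proteins, and ALY4 fell least, with log2 fold changes of -1.11 ± 0.14 and -1.01 ± 0.13.

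Among the genes that rose, MRD1 had the largest fold change. Its summed UMIs were 0, 1 and 2 in the Col-0 libraries and 35, 76 and 88 in the dog1-4 libraries. Over all libraries that is 3 against 199 UMIs, a ratio per nuclear UMI of 69.7 with an exact 95% interval of 23.5 to 340.9 that covers counting error only. MRD1 was seen in 3 of 95 Col-0 seeds and 77 of 95 dog1-4 seeds. Its RefSeq name, mto 1 responding down 1, refers to a methionine overaccumulation mutant.

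PMZ, an AN1-type zinc finger protein of the stress-associated family, followed. It measured 0.943, 1.31 and 2.86 CPM in Col-0 (11 UMIs in all) and 23.5, 51.7 and 66.8 CPM in dog1-4 (356 UMIs). The lowest dog1-4 library was far above the highest Col-0 library (log2 fold change 4.77 ± 0.54, edgeR adjusted p = 0.0437), and 9 Col-0 seeds against 63 dog1-4 seeds of 95 each held a UMI. The list of stress zinc finger and NAC genes held 2 others. NAP, a NAC factor of leaf senescence, had a log2 fold change of 0.50 that was not called (edgeR adjusted p = 0.571), and AT1G76800 did not reach the filter.

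TZP, a zinc finger protein of light-dependent growth, measured 2.83, 2.63 and 3.82 CPM in Col-0 and 22.4, 22.2 and 32.3 CPM in dog1-4 (log2 fold change 3.04 ± 0.30). AT2G01422, a non-coding RNA, measured 0.471, 2.63 and 4.77 CPM against 59.1, 43.0 and 37.6 CPM (4.12 ± 0.51), and the non-coding RNA AT1G67105 was at 12.5 ± 2.26 CPM against 44.8 ± 8.68 CPM. For these genes each dog1-4 library exceeded each Col-0 library by more than 2-fold. ANNAT2, an annexin, rose from 17.6 ± 4.66 to 86.0 ± 27.1 CPM. SEP2, a stress-induced relative of light-harvesting proteins, the heme-binding protein gene SOUL-1 and the uncharacterized AT5G66052 rose less, with log2 fold changes of 1.01 ± 0.13, 1.03 ± 0.13 and 1.15 ± 0.13.

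The other 3 genes that rose encode parts or assembly factors of the proteasome, the complex that degrades ubiquitin-tagged proteins. AT1G67250, a homologue of the assembly factor UMP1 (chromosome 1, 25163599 to 25165056), measured 9.90, 6.13 and 4.29 CPM in Col-0 and 29.9, 45.5 and 47.2 CPM in dog1-4 (log2 fold change 2.59 ± 0.33, edgeR adjusted p = 0.0440). PAA2, an alpha subunit of the 20S core, measured 87.2, 99.8 and 82.5 CPM against 170, 206 and 214 CPM (1.13 ± 0.15). AT1G04810, the Rpn2 subunit of the regulatory particle, went from 50.6 ± 3.80 to 113 ± 11.9 CPM. In all 3 genes the groups were clearly separate.

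These led to a count over all genes whose RefSeq product names the proteasome, a list chosen after the values were seen and therefore given without a test. This match by name also takes in genes of the COP9 signalosome, such as FUS5, FUS12 and COP13 (log2 fold changes -0.23, -0.19 and 0.19). So not every member is a proteasome gene. Of the 45 genes of the list 38 were tested, and 32 of them had a log2 fold change above 0. The median of the list was 0.62 against 0.03 for all genes, of which 4581 of 8456 lay above 0. The list took 0.195%, 0.206% and 0.204% of nuclear UMIs in the Col-0 libraries and 0.261%, 0.363% and 0.404% in the dog1-4 libraries, so that the groups did not overlap. Without the 8 seeds 7 of 37 were called higher, beside 34 of 7930 over all genes (0.429%), and none lower, and the share in dog1-4 library 3 was 0.461%. The additional calls were PBB2, a beta subunit of the core (19.7 ± 3.52 against 57.3 ± 13.9 CPM), PAD2, an alpha subunit (93.3 ± 14.4 against 222 ± 45.2 CPM), RPT5B, an ATPase of the regulatory particle (87.2 ± 1.30 against 176 ± 24.7 CPM), and the Rpn7 subunit AT4G24820 (126 ± 8.72 against 267 ± 56.6 CPM). The adjusted p of these 4 genes was 0.0563 to 0.0993 with all seeds and 0.00929 to 0.0314 without the 8. UBQ10, a polyubiquitin gene, was at 421 ± 24.1 and 908 ± 183 CPM and was also called without the 8 seeds only (edgeR adjusted p = 0.0165). So were the autophagy genes NBR1, a receptor, and ATG8B, with log2 fold changes of 1.00 and 1.05.

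**Figure D3:**
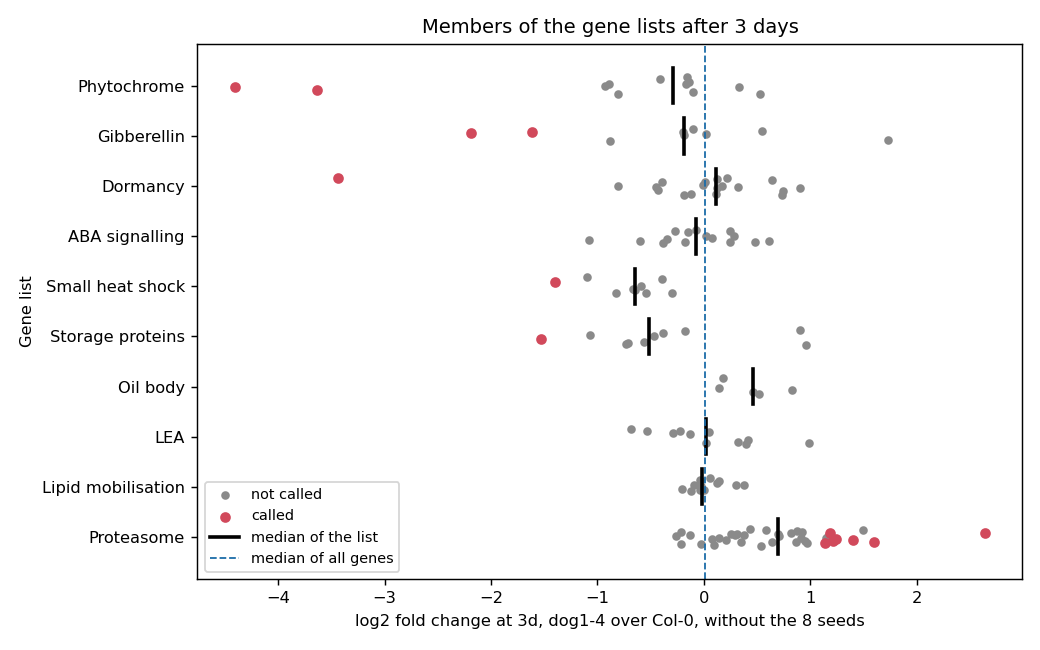
Log2 fold change of dog1-4 over Col-0 at 3d without the 8 seeds for the tested members of 10 gene lists, 1 point a gene, with called genes in red, the median of each list as a black bar and the median of all genes as a dashed line. Genes of the proteasome list, which was matched by product name, lie mostly above 0 and small heat shock genes all below.

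Among phytochrome and light genes, 12 of 24 listed were tested, 10 of them had a log2 fold change below 0, and 1 (FHL) was called with all seeds. The median was -0.32 against 0.03 for all genes, and 6 genes had every dog1-4 library below every Col-0 library, where 9.4% of all genes did. Summed over the list, phytochrome genes took 0.161% to 0.181% of UMIs in Col-0 and 0.0955% to 0.1095% in dog1-4. HB-2 (also ATHB2), a homeobox factor that responds to shade, measured 184, 93.3 and 34.3 CPM in Col-0 and 2.87, 6.21 and 6.21 CPM in dog1-4. The Col-0 libraries differed from each other by more than 5-fold but stayed above dog1-4, and the log2 fold change of -4.29 ± 0.67 was called without the 8 seeds only (edgeR adjusted p = 0.0851 with them, 0.0171 without). The photoreceptor gene PHYA was at 689 ± 68.8 CPM in Col-0 and 355 ± 73.7 CPM in dog1-4, and PIL2 (also PIF6), a phytochrome-interacting factor, at 452 ± 6.92 and 232 ± 49.5 CPM. Their log2 fold changes of -0.96 and -0.96 missed the fold limit, and both missed the p limit with all seeds (edgeR adjusted p = 0.132).

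In the gibberellin list, 9 of 16 genes were tested, 7 had a log2 fold change below 0 and none was called with all seeds. The DELLA genes GAI and RGA1 were called lower without the 8 seeds. GAI measured 172, 130 and 77.3 CPM in Col-0 and 24.7, 22.2 and 41.3 CPM in dog1-4 (log2 fold change -2.18 ± 0.30 without the 8 seeds, edgeR adjusted p = 0.0131). RGA1 was at 71.3 ± 22.4 against 24.0 ± 7.09 CPM (-1.62 ± 0.26, edgeR adjusted p = 0.0246). The DELLA gene RGL2, the main repressor in seeds, was at 113 ± 15.1 and 94.1 ± 5.44 CPM. Its libraries overlapped, though each dog1-4 library lay below the Col-0 library of the same number. GA20OX2, a gibberellin synthesis enzyme, measured 1.41, 4.82 and 17.7 CPM in Col-0 and 6.89, 17.6 and 44.4 CPM in dog1-4. The level of GA20OX2 climbed with library number in both genotypes, and each dog1-4 library lay above the Col-0 library of the same number. Across all libraries the genotypes overlapped, and the log2 fold change of 1.57 was not called (edgeR adjusted p = 0.482). It was called in 1 of 25 alternative settings.

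Of 20 dormancy genes 19 were tested, and DOG1 was the only one called. The DOG1-like genes AT4G18650, AT4G18660, AT4G18680 and AT4G18690 had log2 fold changes of 0.05, 0.62, 0.79 and -0.06, none of them called. For AT4G18660 and AT4G18680, but not for AT4G18650 and AT4G18690, each dog1-4 library lay above the Col-0 library of the same number. ABI3, a master regulator of seed maturation, measured 233, 258 and 293 CPM in Col-0 and 410, 429 and 393 CPM in dog1-4. The groups did not overlap, but the log2 fold change of 0.65 ± 0.13 missed both limits (edgeR adjusted p = 0.148). FUS3, of the same AP2/B3-like family, went the other way. It measured 26.86, 18.39 and 26.71 CPM in Col-0 and 12.06, 13.97 and 11.81 CPM in dog1-4. Its groups did not overlap either, and its log2 fold change of -0.93 ± 0.22 also missed both limits (edgeR adjusted p = 0.2004). ABI5, E12A11 (also MFT) and AHG1, a phosphatase that DOG1 binds, had log2 fold changes of -0.20, 0.11 and -0.52 with adjusted p of 0.656, 0.821 and 0.378. Among the tested dormancy genes, ABI3 alone had every dog1-4 library above every Col-0 library. For 5 of them (DOG1, FUS3, AHG1, HUB1 and TFIIS) every dog1-4 library lay below every Col-0 library. Over all genes tested 10.3% lay above in this way and 9.4% below. Among 27 ABA signalling genes 17 were tested and none was called, with log2 fold changes from -1.02 in the receptor gene PYL7 to 1.06 in PYL4. The PYL4 value rests on dog1-4 library 3, at 46.0 CPM against 3.77 to 13.1 CPM in the other 5 libraries. PYL4 did not pass the filter without the 8 seeds, and the highest value of the list was then 0.62, in PYR1. Of 9 ABA synthesis genes 3 were tested and none was called, and the catabolic gene CYP707A2 was at 31.4 ± 2.64 and 31.4 ± 1.66 CPM.

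Genes of stored reserves and heat protection took a different share of the RNA at 3d. Storage protein transcripts made up 20.3%, 19.4% and 19.8% of nuclear UMIs in the Col-0 libraries and 15.2%, 15.0% and 10.0% in the dog1-4 libraries (11.8% in library 3 without the 8 seeds). The cruciferin genes CRA1 and CRU3 and the albumin gene SESA5 carried most of it, and their log2 fold changes were -0.80, -0.52 and -1.12, none of them called (edgeR adjusted p from 0.238 to 0.480). In dry seeds the values of these genes were 0.83, 0.93 and -2.30, so CRA1 and CRU3 lay on the other side there. SESA1, an albumin of lower level, was called lower without the 8 seeds, at 232 ± 42.5 against 81.0 ± 33.5 CPM. SESA3 and SESA4 went the other way, with log2 fold changes of 0.90 and 0.86 that were not called. All 9 small heat shock genes tested, of 15 listed, had a log2 fold change below 0 (median -0.63), and HSP23.6-MITO was called without the 8 seeds (295 ± 56.1 against 107 ± 35.2 CPM, edgeR adjusted p = 0.0175). All of these genes lay below 0 in dry seeds as well, with HSP23.6-MITO at -4.81 there. The 5 oil body genes tested all lay above 0, with a median of 0.40 and none called.

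Other genes were called only without the 8 seeds, and their levels are given with all seeds. GASA2, a gibberellin-regulated cysteine-rich peptide, was the most abundant of those that were lower, at 2087 ± 248 CPM in Col-0 and 751 ± 264 CPM in dog1-4. EBF2, an F-box protein that marks the ethylene factor EIN3 for degradation, was at 157 ± 23.5 and 66.6 ± 16.0 CPM. FSD1, an iron superoxide dismutase, measured 50.4, 43.8 and 52.9 CPM in Col-0 and 23.5, 13.5 and 76.4 CPM in dog1-4. Library 3 of dog1-4 was at 15.0 CPM without the 8 seeds, and its log2 fold change was then -1.50 ± 0.21 against -0.34 with them. Among those that were higher, AT1G64795, an uncharacterized protein, measured 8.95, 14.4 and 38.6 CPM in Col-0 and 848, 378 and 310 CPM in dog1-4 (4.68 ± 0.53 without the 8 seeds, edgeR adjusted p = 0.0075). AT2G21640, annotated as a marker of oxidative stress, was at 4.47 ± 1.92 and 30.9 ± 11.4 CPM. GAPC1, a cytosolic glycolytic dehydrogenase, was at 35.5 ± 7.64 and 156 ± 78.2 CPM.

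Several lists held no call under either set of seeds. These were lipid mobilisation (12 of 12 tested, median log2 fold change 0.03), late embryogenesis abundant and desiccation genes (11 of 12, median -0.04), chaperones (7 of 11), hypoxia (7 of 14), cell wall loosening (2 of 15) and cytosolic ribosomal proteins (240 of 316, median 0.12). Cytosolic ribosomal protein genes took 3.449% of nuclear UMIs in dog1-4 library 3, beside 2.288% and 2.187% in dog1-4 libraries 1 and 2 and 2.024% to 2.513% in Col-0. In the ethylene list 9 of 12 were tested and none was called with either set. The ethylene synthesis gene EFE had a log2 fold change of 5.65 with all seeds that was not called (edgeR adjusted p = 0.336). It was high in dog1-4 library 3 alone, at 93.8 CPM against at most 2.07 CPM in any other library, and did not reach the filter without the 8 seeds.

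The makeup of the seeds was read from marker genes. The endosperm genes EPR1, EXPA2 and CYP707A2 were detected in every library, at 204 ± 6.21 and 178 ± 23.5 CPM for EPR1, and together with MAN7 made up 0.0244% to 0.0269% of UMIs in Col-0 and 0.0240% to 0.0262% in dog1-4. EXPA2 varied within each genotype, at 26.9, 31.1 and 5.72 CPM in Col-0 and 13.2, 9.31 and 36.0 CPM in dog1-4. The seed coat genes BAN, TT12 and TT10 had 0 to 4 UMIs in any library. Genes of the photosynthesis list took 0.0503% to 0.0577% of UMIs in Col-0, 0.0635% and 0.0543% in dog1-4 libraries 1 and 2 and 2.27% in library 3, which fell to 0.0562% without the 8 seeds. Their part in the calls was measured only by leaving out those seeds. Sums over whole seeds cannot tell fewer cells of a type from less RNA per cell.

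At 7d+24h 828 of the same 8456 genes were called (9.79%) in a fit of all 12 libraries, in which 104 were called at 3d, and 465 genes (5.5%) had a genotype difference that differed between 3d and 7d+24h by the interaction test. Of the 21 genes called at 3d, 9 were called at 7d+24h, all in the same direction, and 9 were called by the interaction test. DOG1, MRD1, PMZ, AT2G01422, AT1G67105, PAA2, AT1G67250, ANNAT2 and ARP9 were called at both times. PMZ was at 2.77, 0.955 and 2.09 CPM in Col-0 and 65.5, 101 and 68.5 CPM in dog1-4 at 7d+24h. FHL was not: it measured 7.37, 9.55 and 11.8 CPM in Col-0 and 17.0, 17.4 and 14.1 CPM in dog1-4, on the opposite side from 3d (interaction 4.57 ± 0.28 on the log2 scale, edgeR adjusted p = 2.21e-05). The interaction count was 3, 0 and 1216 when replicates 1, 2 and 3 were left out at both times, and the count at 7d+24h was 579, 1 and 1146.

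In dry seeds 509 of 9580 genes were called (5.31%). Of the 21 genes called at 3d, 16 were tested in dry seeds and 2 were called there, DOG1 and MRD1, both in the direction of 3d. DOG1 measured 68.2, 79.4 and 69.6 CPM in dry Col-0 pools and 5.60, 3.58 and 7.76 CPM in dry dog1-4 pools. MRD1 was at 0, 1.26 and 0 CPM in the Col-0 pools and 13.2, 14.9 and 13.1 CPM in the dog1-4 pools. PMZ in dry seeds was at 14.7, 15.1 and 19.2 CPM in Col-0 and 13.2, 28.6 and 18.4 CPM in dog1-4, so the dry pools of the genotypes overlapped. FHL did not pass the filter there. TZP was at 46.9 to 60.8 CPM in dry Col-0 and 47.8 to 74.8 CPM in dry dog1-4, and PAA2 at 56.5 to 65.6 and 57.0 to 60.9 CPM.

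**Figure D4:**
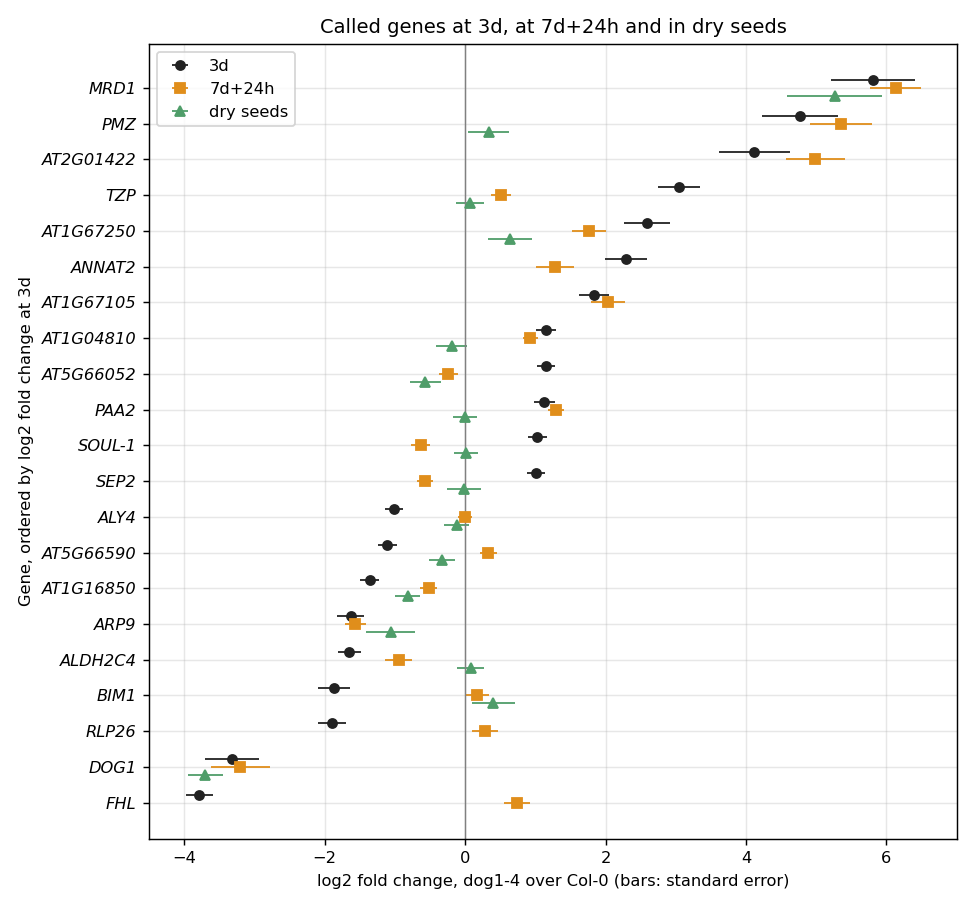
Log2 fold change of dog1-4 over Col-0 with its standard error for the 21 genes called at 3d (circles), with the same genes at 7d+24h (squares) and in dry seeds (triangles, where tested). DOG1 and MRD1, the genes also called in dry seeds, lie on the same side in all 3, as do others such as PMZ and AT1G67250. FHL lies at -3.79 at 3d and at 0.74 at 7d+24h.

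The time course of the series holds 3 further libraries of Col-0 seeds at 3d, which were not in any test here and have their own scale (CPM of nuclear UMIs without further scaling). Their median unspecific share was 62.5% to 73.0%, against 12.5% to 13.9% in the Col-0 libraries of the comparison, and their median seed held 24432.5 to 50707 UMIs. Of the 21 called genes 19 were listed there. For 11 genes all 3 time-course libraries lay nearer to the Col-0 mean of log2(CPM + 1) than to the dog1-4 mean, for 4 (MRD1, ARP9, AT5G66590 and AT1G04810) all 3 lay nearer to dog1-4, and for 4 they were divided. Of 54 listed genes called without the 8 seeds, 24 lay nearer to Col-0, 17 nearer to dog1-4 and 13 were divided. This count was added after the values were seen. Of the genes named in this report, FSD1, HSP23.6-MITO, ATS3 and AT2G21640 were among those nearer to dog1-4. GAI, RGA1, SESA1, GASA2, EBF2 and UBQ10 were among those divided. FHL was at 86.9, 87.1 and 48.2 CPM there, RLP26 at 45.9 to 83.7 CPM, BIM1 at 51.7 to 76.8 CPM and PMZ at 1.26, 2.29 and 5.23 CPM, all nearer to the Col-0 than to the dog1-4 libraries of the comparison. MRD1 was different: it measured 51.6, 56.1 and 37.2 CPM in these Col-0 libraries, each above 2 of the 3 dog1-4 libraries and far above the Col-0 libraries of the comparison. ARP9 was at 7.55, 6.88 and 9.88 CPM, a level like that of dog1-4 (8.04, 7.24 and 8.39 CPM), and AT5G66590 at 49.1, 74.5 and 59.9 CPM. AT2G32520, called higher without the 8 seeds, was at 80.2 to 117 CPM there, above all libraries of the comparison (at most 33.6 CPM). DOG1 was at 30.2, 30.9 and 36.0 CPM, below each Col-0 library of the comparison. These libraries carry the label Col-0 like those of the comparison, and no test was made across the experiments.

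The members at the limit were close to each other. Among called genes the highest adjusted p was 0.0440, shared by several genes such as AT5G66590, and AT1G15800 was the nearest gene outside, with a log2 fold change of -1.54 and an adjusted p of 0.0506. THA1 passed the p limit (0.0440) with a log2 fold change of 0.97.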

How the data were processed

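Seeds were sequenced singly from 3′ ends in libraries of 32. The authors trimmed poly(A), mapped reads with STAR 2.7.8a to TAIR10 with Araport11 genes and deposited UMI counts per gene and seed, from unique mappings on the sense strand. For dry pools the authors used UMI-tools 1.1.0 and HTSeq 0.11.3, and the deposited values are deduplicated counts. Nothing was normalised before deposit. Rows naming no gene held 9.79% to 11.5% of UMIs per library and were left out.

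Here, seeds with at least 5000 nuclear UMIs were summed per library (2 of 192 seeds were left out), and of 37051 nuclear genes the 8456 that averaged 1 UMI or more in a seed were tested with edgeR 4.0.16 (R 4.3.3, quasi-likelihood, TMM), with Benjamini-Hochberg adjustment over all of them. Standard errors are the log2 fold change divided by the root of F. Recovery and the interaction came from a fit of 12 libraries over the same genes, and dry seeds from a separate fit. Exact permutation tests used scipy 1.17.1. Names and coordinates are RefSeq's on TAIR10.1. The analysis was tested on simulated counts with known changes. Intervals cover counting error only. No library repeated another: chi-square per degree of freedom between libraries of a genotype was 2.40 to 30.5. Genes named are DOG1, up to 15 called genes in each direction whose libraries do not overlap, called list members and the gene nearest the limit on either side. Of the tested dormancy, ABA, gibberellin and phytochrome genes only a part is named. The others were not called with or without the 8 seeds. Some of them, such as PHYB, GA2OX2 and ABF4, had every dog1-4 library below every Col-0 library. The genes called only without the 8 seeds, the proteasome list and the examples from other lists were named after their values were seen. The genes and lists were chosen with earlier results of these data known. Alternatives included DESeq2 1.42.0, other filters and left-out libraries. One listed gene is not reported here.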

Additional observations from a re-analysis of the deposited data

Results flagged for a closer look

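For 9 of the 21 genes called at 3d, the difference between dog1-4 and Col-0 was not the same at 7d+24h by the interaction test (edgeR, 12 libraries). The change in the log2 fold change from 3d to 7d+24h was 4.57 for FHL, 2.20 for RLP26, 2.06 for BIM1, 1.47 for AT5G66590 and 1.03 for ALY4, all lower in dog1-4 at 3d. It was -2.53 for TZP, -1.63 for SOUL-1, -1.55 for SEP2 and -1.36 for AT5G66052, all higher in dog1-4 at 3d. In all 9 genes the change ran against the 3d difference. They were chosen by their size at 3d, and the 3d libraries enter both values.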

How the results depend on the processing

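Over 521 values of the 21 called genes under the alternatives, 299 were still called, 222 were not and none changed sign. The count of 21 at 3d became 94 with DESeq2, 619 of 30272 genes with no filter on low counts, 43 with filterByExpr, 10 with a minimum of 5 UMIs per seed, 3 of 314 genes with r of at most 0.3 with unspecific UMIs, 1 with the unspecific share as a covariate, 3 with seeds thinned to 5000 UMIs, 104 in 1 fit of 12 libraries and 150 with a Wilcoxon test over seeds, which are not replicates. It was 0 to 100 with libraries left out. The r with unspecific UMIs was taken over seeds on counts not scaled to depth, so both counts rise in deeper seeds. The study's own filter used the intergenic signal. Alternatives chosen after seeing the data gave 56 without the 8 seeds, 97 with DESeq2 as well, and 82, 0 and 91 when replicates 1, 2 and 3 were also left out. A fit with a replicate block called 14 genes, or 130 without the 8 seeds. Same-numbered libraries deviated with r of 0.33, -0.19 and 0.04 with all seeds and 0.54, -0.15 and 0.33 without the 8 seeds. Replicate 2 was negative in both. Each deviation was taken from a mean of only 3 libraries, so this check cannot decide whether same-numbered libraries belong together. In a steady trend library 2 lies near the mean, so its r says little. Some genes, such as GA20OX2 and ERF12, climbed with library number in both genotypes. ERF12 measured 52.3, 126 and 193 CPM in Col-0 and 77.5, 169 and 210 CPM in dog1-4. EXPA2 did not. These genes were picked by their values, and no count over all genes was made. The main fit took no pairing, so a shared difference would enter its spread.

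The interaction count of 465 became 166 with the minimum of 5, 40 with the limit on r and 871 with no minimum fold change, and 0 to 1216 with replicates left out. At 7d+24h the 828 became 299, 119 and 3440 in the same order, and 1 to 1146. In dry seeds the 509 became 958 with no minimum fold change and 391 to 533 with replicates left out. The difference in median UMIs per seed (dog1-4 minus Col-0, -1801.5) ran from -12317 to 3558 with replicates left out and was 3354.5 without replicate 2. That of the unspecific share (-0.102 percentage points) ran from -0.390 to 0.193, and was 0.1275 on library sums. Fewer genes or samples enter the filters and the left-out fits, and the cause of the other shifts was not tested.

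Depth limits the genes tested to those with about 1 UMI per seed, so genes below this level were left out of the main comparison. Calls without that filter include them.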

Other observations

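Of the 285 genes tested within 2 Mb of DOG1, 3 were called at 3d, DOG1, ARP9 and TZP, beside 21 of 8456 over all genes (0.248%). Within 1 Mb 1 of 146 was called, DOG1 itself. On the whole of chromosome 5, 9 of 2026 tested genes were called. The background of the mutant around the locus is not described in the labels, and its part in these values was not tested.

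ATS3, an embryo-specific protein, was the 1 gene called without the 8 seeds that was called in the opposite direction at 7d+24h. Its log2 fold change was 1.18 at 3d without the 8 seeds (edgeR adjusted p = 0.0493), -3.07 at 7d+24h and 2.43 in dry seeds.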
